A study of Mus musculus with 2 samples.

Results

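Endothelial junction and surface genes were chosen by name: *Cdh5*, *Cldn5*, *Esam*, *Pecam1*, *Emcn*, *Plvap*, *Icam2*, *Lyve1*, *Cd34* and *Egfl7*, 10 of the 29453 genes in the spliced and unspliced count tables. They were read in the endothelial and blood cells of mouse chimeras. TdTom+ embryonic stem cells of 1 male clone, with a 38 bp frameshift in exon 4 of the X-linked gene *Gata1* (*Gata1*-), were injected into wildtype tdTom- C57BL/6 blastocysts of E3.5, and 6 whole chimeric embryos were pooled, dissociated and sorted by tdTom. Each sorted fraction gave 1 droplet library, so that tdTom+ and tdTom- cells shared embryos and handling up to the sort. The ages in the labels were E8.5 for tdTom+ and E8.6 for tdTom-, although both came from the same pool. The tdTom+ line had been derived from a cross of a ROSA26tdTomato male with a C57BL/6 female, so that loss of *Gata1*, passage as a stem cell clone, the reporter and the library cannot be told apart.

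Endothelial cells line the first vessels of the yolk sac and the embryo, and the earliest blood cells arise beside them or from haemogenic endothelium. Their borders are held by an adherens junction built on the cadherin encoded by *Cdh5* and by tight junction proteins such as those of *Cldn5* and *Esam*, while receptors and mucins on the luminal face govern the contact with blood cells. Gata1 is a zinc finger transcription factor that erythroid and megakaryocytic cells need to mature.

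The 10 genes lie on 8 chromosomes of GRCm38 and all are protein coding (GENCODE vM21). *Cdh5* is at chr8:104101625-104144511 (+), *Cldn5* at chr16:18776847-18778262 (+), *Esam* at chr9:37528078-37538319 (+), *Pecam1* at chr11:106654217-106750628 (-) and *Icam2* at chr11:106377656-106388075 (-). *Emcn* is at chr3:137341067-137432185 (+), *Cd34* at chr1:194938819-194961279 (+), *Plvap* at chr8:71497765-71511752 (-), *Lyve1* at chr7:110850607-110863239 (-) and *Egfl7* at chr2:26580014-26593120 (+). *Cldn5* has a single exon and therefore no intron from which unspliced molecules could be counted. *Cdh5*, *Plvap* and *Cd34* each overlap 1 annotated gene on the other strand, and *Egfl7* overlaps 4 genes, 2 of them on its own strand. Whether the counting used strand was not given in the sources used here, so the *Egfl7* values in particular may hold reads of neighbours.

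Promoters are shown for *Emcn*, *Cd34*, *Cldn5* and *Egfl7*, the 4 members with a window in the table used here, as the sequences in front of the genes whose counts are given below. They are RefSeq windows of GRCm38.p6 from 250 bases before to 50 bases after a transcript start, all on the plus strand. Capitals mark the letters AGGAAG or their reverse complement CTTCCT, the core bound by ETS factors, which include the endothelial regulators *Etv2*, *Erg* and *Fli1*. None of the 4 windows printed held AGATAA or its reverse complement TTATCT, called the GATA letters below. Other forms of the GATA motif were not counted, but some can be read in the printed sequences. The *Emcn* window holds TTATCA, that of *Cd34* CTATCT and that of *Egfl7* CTATCA, each with GATA on the other strand. The lack of the GATA letters is therefore not a lack of GATA motifs. Whether Gata1 binds these windows was not tested.
Emcn, chr3:137340828-137341127: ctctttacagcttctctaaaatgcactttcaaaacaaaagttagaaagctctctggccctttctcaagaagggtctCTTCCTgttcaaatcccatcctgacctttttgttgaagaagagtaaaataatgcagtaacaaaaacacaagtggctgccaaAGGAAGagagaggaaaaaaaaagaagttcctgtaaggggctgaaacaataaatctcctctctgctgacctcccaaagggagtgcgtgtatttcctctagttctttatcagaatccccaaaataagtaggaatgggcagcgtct
Cd34, chr1:194938571-194938870: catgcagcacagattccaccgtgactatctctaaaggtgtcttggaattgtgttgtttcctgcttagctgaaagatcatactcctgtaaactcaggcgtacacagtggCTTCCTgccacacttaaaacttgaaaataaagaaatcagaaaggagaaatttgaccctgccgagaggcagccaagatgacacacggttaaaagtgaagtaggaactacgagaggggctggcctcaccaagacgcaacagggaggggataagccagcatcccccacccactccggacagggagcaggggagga
Cldn5, chr16:18776597-18776896: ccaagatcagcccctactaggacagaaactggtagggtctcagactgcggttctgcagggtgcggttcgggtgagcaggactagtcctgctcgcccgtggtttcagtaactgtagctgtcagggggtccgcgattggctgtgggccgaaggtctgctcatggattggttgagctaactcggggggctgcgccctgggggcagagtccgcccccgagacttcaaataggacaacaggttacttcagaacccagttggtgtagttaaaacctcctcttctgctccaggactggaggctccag
Egfl7, chr2:26580833-26581132: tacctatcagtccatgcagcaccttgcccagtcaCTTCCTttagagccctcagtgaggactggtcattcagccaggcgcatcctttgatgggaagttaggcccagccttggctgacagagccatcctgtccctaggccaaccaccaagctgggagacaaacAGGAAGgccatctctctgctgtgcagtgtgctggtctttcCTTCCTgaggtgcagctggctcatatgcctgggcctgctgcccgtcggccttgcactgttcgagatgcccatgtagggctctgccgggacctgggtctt
The ETS letters occurred 2 times in the *Emcn* window, 1 time in that of *Cd34*, 0 times in that of *Cldn5*, and 3, 2 and 0 times in the 3 windows of *Egfl7*, of which the one with 3 is printed. Of 32851 promoter windows in the table, 35.4% held the ETS letters and 11.2% the GATA letters on either strand, and a match is a description of the letters only. *Egfl7* also hosts miR-126a, an endothelial miRNA, and the mature 3p arm lies at chr2:26591402-26591423 (+) in an intron of all 7 coding transcripts that span it. Its sequence is shown with the seed, bases 2 to 8, in capitals. The miRNA itself was not measured, and the counts of its host gene below do not stand for it.
mmu-miR-126a-3p: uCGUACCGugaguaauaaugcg

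The tables held 8981 tdTom+ and 9252 tdTom- barcodes with 167940767 and 157174026 spliced UMIs, medians of 17598 and 15996 per cell, and 18 barcodes occurred in both libraries. After doublets were left out, 17285 cells remained, of which 3983 were haemato-endothelial and formed 17 sub-clusters. Names were given from marker genes that did not include the 10 members, and the clustering did not use the members either. *Gata1* stood at 6.73 CPM (UMIs of a gene per 1000000 spliced UMIs of the same cells) in all tdTom+ and at 29.3 CPM in all tdTom- cells. A frameshift need not remove the transcript, so this is no full check of the labels. Blood cells of the 2 fractions fell into different sub-clusters, with progenitor-like ones almost all tdTom+ and erythroid-like and megakaryocyte-like ones almost all tdTom-, whereas the endothelial-like and myeloid-like sub-clusters held both. With 1 library for each fraction there are no replicates and no p-values, and all intervals below are 95% intervals that cover counting error only.

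The 4 endothelial-like sub-clusters carried the 10 genes at different levels. Sub-cluster 0 (139 tdTom+ and 84 tdTom- cells, led by *Ctla2a*, *Selenop* and *Gpr182*) had the highest sum of the members, 3585 (tdTom+) and 4419 CPM (tdTom-). Sub-cluster 6 (88 and 80 cells, led by *Etv2* and *Clec1b*) had 1541 and 1905 CPM, and sub-cluster 11 (154 and 78 cells, led by *Rasip1* and *Gja4*) had 1451 and 1850 CPM. In sub-cluster 13 (98 and 109 cells, led by *Etv2*, *Kdr* and *Gja4*, with 4 of 5 allantois markers also raised) the sum was 433 and 648 CPM. The same order held in both fractions, with sub-clusters 6 and 11 close to each other. An unnamed sub-cluster 12 of 53 cells, led by *Etv2*, *Kdr* and *Gadd45g*, had 381 and 306 CPM. Neural-like cells, a class that should lack these proteins and was taken as the comparison for background, had 17.4 (tdTom+) and 16.5 CPM (tdTom-), and 253 of their 424 and 362 of their 550 UMIs were of *Egfl7*. For *Egfl7* that level depends on the class chosen: neural-like cells had 10.4 (tdTom+) and 10.8 CPM (tdTom-), and the other classes outside blood and endothelium ran from 7.91 CPM in somite-like to 20.4 CPM in cardiomyocyte-like cells of tdTom+, and from 8.16 CPM in somite-like to 23.2 CPM (20.1 to 26.7) in mesenchyme-like cells of tdTom-.

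After each cell was thinned to 5000 spliced UMIs, cells of sub-cluster 0 held a UMI of a median of 7 of the 10 members in both fractions, and 99.3% of its tdTom+ and 98.7% of its tdTom- cells had at least 4. In sub-cluster 13 the medians were 1 in tdTom+ and 2 in tdTom-. Over all endothelial-like cells 63.1% of 458 tdTom+ cells (58.5 to 67.5) and 63.7% of 339 tdTom- cells (58.3 to 68.8) reached 4 members, and the intervals overlapped almost wholly. No neural-like cell of 1382 tdTom+ and 2045 tdTom- cells did, with upper 95% limits of 0.267% and 0.180%. In sub-cluster 11 the share was 63.3% (54.9 to 71.1) in tdTom+ and 81.3% (70.7 to 89.4) in tdTom-, and in sub-cluster 6 it was 61.4% (50.1 to 71.9) and 74.0% (62.8 to 83.4). By gene, the thinned share of endothelial-like cells ran from 14.6% and 15.9% for *Lyve1* to 68.3% and 68.1% for *Plvap*, and the unthinned one from 21.1% and 19.9% for *Lyve1* to 89.4% for *Plvap* in tdTom+ and 90.0% for *Egfl7* in tdTom- cells.

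**Figure D1:**
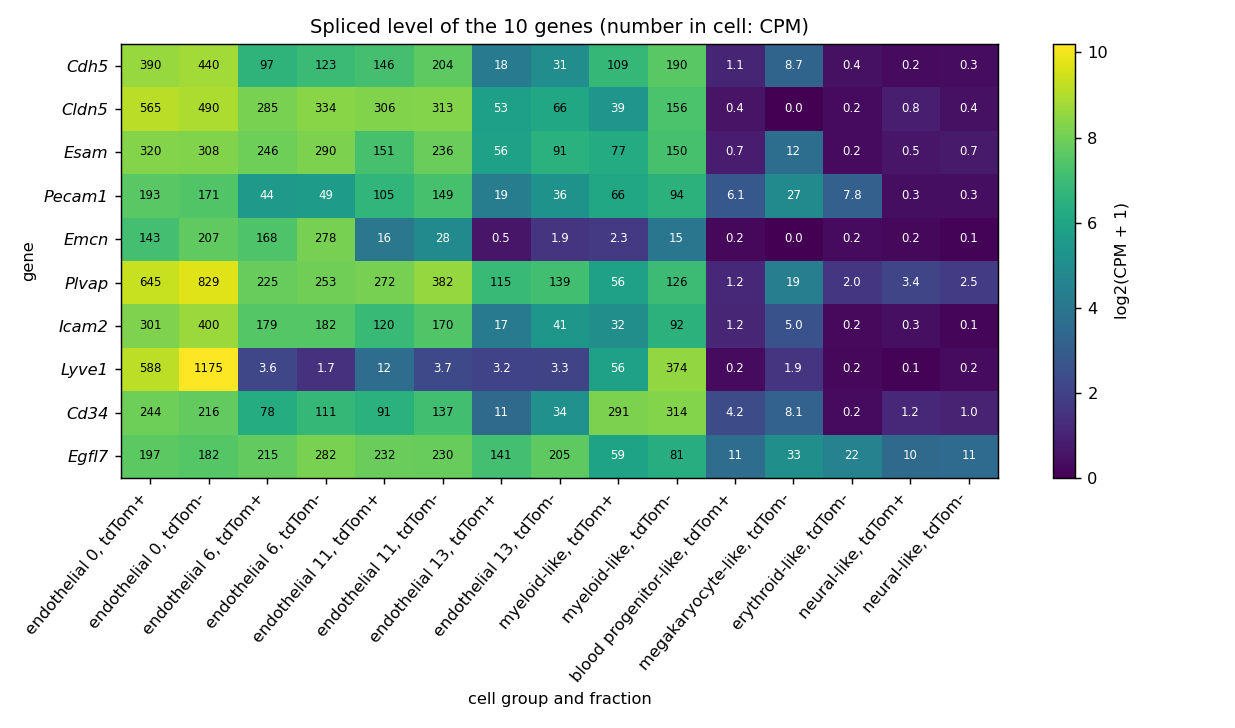
Heat map of the spliced level of the 10 genes (rows) in cell groups split by fraction (columns); the number in each cell is CPM and the colour is log2(CPM + 1). *Lyve1* is at 588 and 1175 CPM in sub-cluster 0 and at 374 CPM in tdTom- myeloid-like cells, and *Egfl7* is at 10.4 and 10.8 CPM in neural-like cells.

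Pooled over the endothelial-like cells (479 tdTom+ and 351 tdTom-, with 8205154 and 5815382 spliced UMIs) the members summed to 1780 (tdTom+) and 1929 CPM (tdTom-), a log2 fold of -0.12 (-0.15 to -0.08). Of the 10 members, 1 had an interval above 0, beside 8.34% of 9113 genes with at least 50 UMIs in both groups together, and 6 had an interval below 0, beside 11.9% of those genes. No member changed 2-fold, beside 0.285% of genes that were at least 2-fold higher and 0.713% at least 2-fold lower. The median log2 fold was -0.14 over the members and -0.02 over all genes tested. The pooled value joined sub-clusters in unequal shares: the share of endothelial-like cells in sub-cluster 11 was 32.2% (28.0 to 36.5) for tdTom+ against 22.2% (18.0 to 26.9) for tdTom-, and in the member-poor sub-cluster 13 it was 20.5% (16.9 to 24.4) against 31.1% (26.2 to 36.2). With the same weight for each sub-cluster in both fractions, chosen after the data were seen, the sum was 1789 (tdTom+) and 2252 CPM (tdTom-), a log2 fold of -0.33. The sum was lower in tdTom+ in 4 of 4 sub-clusters, by -0.30 (-0.35 to -0.25) in sub-cluster 0, -0.31 (-0.39 to -0.22) in sub-cluster 6, -0.35 (-0.42 to -0.28) in sub-cluster 11 and -0.58 (-0.71 to -0.46) in sub-cluster 13 on the log2 scale. Without sub-cluster 11 the pooled log2 fold was -0.00035 and without sub-cluster 13 it was -0.30.

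**Figure D2:**
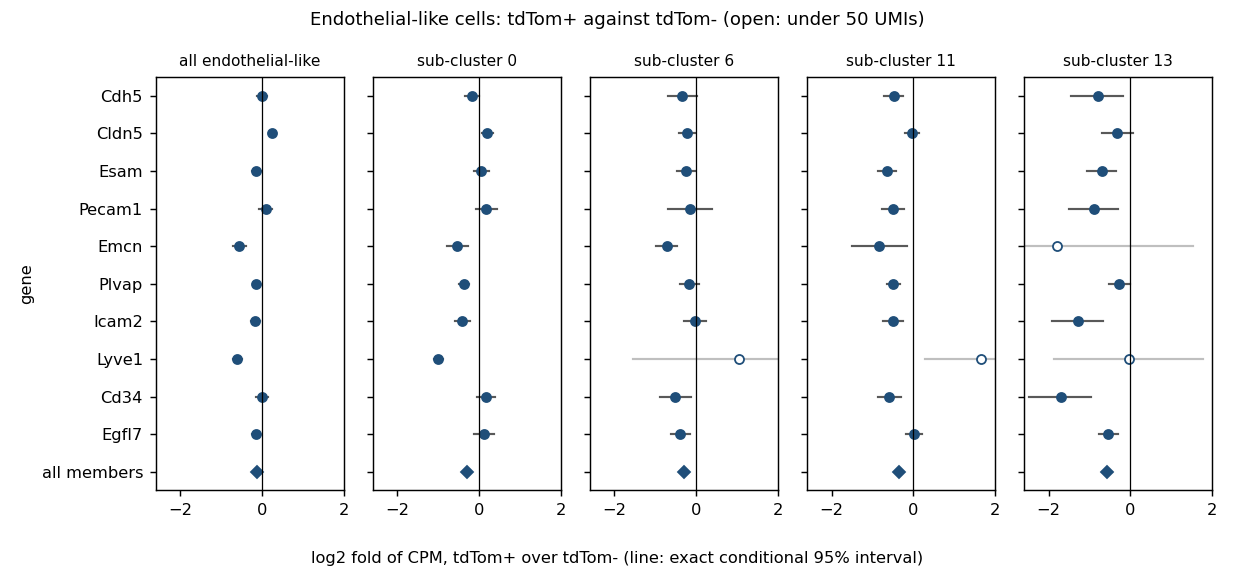
Log2 fold of CPM, tdTom+ over tdTom-, of each member and of their sum (diamond) in all endothelial-like cells and in the 4 sub-clusters; lines are exact conditional 95% intervals, drawn up to the axis limits, and open points have under 50 UMIs. The sum lies left of 0 in all 5 panels, from -0.12 when pooled to -0.58 in sub-cluster 13.

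The junction genes *Cdh5* and *Esam* were lower in tdTom+ in some sub-clusters, whereas *Cldn5* differed in direction between them. *Cdh5* encodes the vascular endothelial cadherin that binds catenins. It stood at 390 (tdTom+) and 440 CPM (tdTom-) in sub-cluster 0, 97.4 and 123 CPM in sub-cluster 6, 146 and 204 CPM in sub-cluster 11, and 17.6 and 30.7 CPM in sub-cluster 13. The tdTom+ value was the smaller in each, with intervals below 0 in sub-clusters 0 (log2 fold -0.18, -0.34 to -0.01), 11 (-0.49, -0.71 to -0.26) and 13 (-0.80, -1.45 to -0.18), while the pooled levels were 171 CPM in both fractions. With the same sub-cluster weights in both fractions the *Cdh5* log2 fold was -0.29.

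*Cldn5*, the main claudin of endothelial tight junctions, was the member whose interval lay above 0 in the pool, at 311 (tdTom+) and 261 CPM (tdTom-) (log2 fold 0.25, 0.16 to 0.34). Within sub-clusters it was higher only in sub-cluster 0, at 565 against 490 CPM (0.20, 0.06 to 0.35), and lower in sub-cluster 6, at 285 against 334 CPM (-0.23, -0.43 to -0.02). Levels in sub-cluster 11 were 306 and 313 CPM and those in sub-cluster 13 were 52.8 and 66.0 CPM, and both intervals held 0. The log2 fold with the same weights in both fractions was 0.02, so the pooled rise of *Cldn5* was not seen once sub-cluster shares were held equal. *Esam*, an immunoglobulin-family protein of endothelial and platelet junctions, was at 320 and 308 CPM in sub-cluster 0. Its tdTom+ level was lower in sub-cluster 6, at 246 against 290 CPM (-0.24, -0.46 to -0.02), in sub-cluster 11, at 151 against 236 CPM (-0.64, -0.86 to -0.43), and in sub-cluster 13, at 56.0 against 91.2 CPM (-0.70, -1.06 to -0.35). The pooled *Esam* log2 fold of -0.14 (-0.25 to -0.03) turned to 0.07 without sub-cluster 11.

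Among the adhesion receptors, *Pecam1* mediates homophilic contact between endothelial cells and is shared with platelets and leukocytes. Its levels were 193 and 171 CPM in sub-cluster 0 and 44.1 and 48.8 CPM in sub-cluster 6, with both intervals around 0. In sub-cluster 11 it was at 105 (tdTom+) and 149 CPM (tdTom-) (-0.50, -0.77 to -0.24), and in sub-cluster 13 at 19.2 and 35.8 CPM (-0.90, -1.51 to -0.31). *Icam2* encodes a ligand of leukocyte integrins that endothelium carries without stimulation. It was lower in tdTom+ in sub-cluster 0, at 301 against 400 CPM (-0.41, -0.59 to -0.24), in sub-cluster 11, at 120 against 170 CPM (-0.50, -0.75 to -0.25), and in sub-cluster 13, at 17.1 against 41.4 CPM (-1.28, -1.91 to -0.68). Sub-cluster 6 was the exception, at 179 and 182 CPM.

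The sialomucins *Emcn* and *Cd34* place negatively charged, anti-adhesive chains on the luminal face. *Emcn* was found in sub-clusters 0 and 6, at 143 and 168 CPM in tdTom+ and 207 and 278 CPM in tdTom- cells, and was lower in tdTom+ in both (-0.53, -0.78 to -0.28, and -0.72, -0.97 to -0.48). Sub-cluster 11 had 15.6 and 27.7 CPM of *Emcn* (-0.83, -1.49 to -0.16), and sub-cluster 13 had 1 and 4 UMIs in all. *Emcn* had the second lowest pooled log2 fold of the members, -0.55 (-0.72 to -0.39), and -0.64 with the same weights in both fractions. *Cd34* is also carried by blood stem and progenitor cells. It was at 244 and 216 CPM in sub-cluster 0, where its interval held 0, and lower in tdTom+ in sub-cluster 6 (78.2 against 111 CPM, -0.51, -0.89 to -0.13) and in sub-cluster 11 (90.6 against 137 CPM, -0.59, -0.87 to -0.31). The lowest log2 fold of *Cd34* was in sub-cluster 13, -1.69 (-2.48 to -0.96), from 20 UMIs in tdTom+ and 74 in tdTom-.

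*Plvap* forms the diaphragms of fenestrae and caveolae. Its levels were 645 (tdTom+) and 829 CPM (tdTom-) in sub-cluster 0 (-0.36, -0.48 to -0.24), 225 and 253 CPM in sub-cluster 6, 272 and 382 CPM in sub-cluster 11 (-0.49, -0.65 to -0.32) and 115 and 139 CPM in sub-cluster 13 (-0.27, -0.53 to -0.01). The tdTom+ value was the smaller in 4 of 4 sub-clusters, and the interval of sub-cluster 6 held 0. Its pooled log2 fold of -0.14 (-0.22 to -0.05) became 0.01 without sub-cluster 11.

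*Lyve1*, a hyaluronan receptor best known from lymphatic vessels and also present on yolk sac endothelium, had the lowest pooled log2 fold of the members, -0.61 (-0.72 to -0.49). Of its 1277 tdTom+ and 1377 tdTom- UMIs in endothelial-like cells, 1233 and 1363 lay in sub-cluster 0. The level there was 588 CPM (555 to 621) in tdTom+ and 1175 CPM (1113 to 1239) in tdTom-, a log2 fold of -0.999 (-1.11 to -0.89). No finer split of sub-cluster 0 is given here, and the part of unequal shares of cell states within it was not tested. After thinning, 46.3% of 134 tdTom+ cells (37.6 to 55.1) and 64.6% of 79 tdTom- cells (53.0 to 75.0) of sub-cluster 0 held a *Lyve1* UMI, and without thinning 56.8% and 67.9% did, at median depths of 14071 and 12779.5 UMIs. In neural-like cells the thinned shares were 0.0724% and 0.0489%, at median depths of 16800 and 15231 UMIs. Outside sub-cluster 0 the gene was near absent from endothelium, with 33 tdTom+ and 5 tdTom- UMIs in sub-cluster 11 and 7 or fewer in each fraction of the other 2, and without sub-cluster 0 its pooled log2 fold turned to 1.26 (0.37 to 2.24).

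*Egfl7* encodes a secreted factor that endothelium deposits in its matrix. It varied least between the sub-clusters of the members, from 141 to 233 CPM in tdTom+ and from 182 to 282 CPM in tdTom- cells. It was lower in tdTom+ in sub-cluster 6 (215 against 282 CPM, -0.39, -0.62 to -0.16) and sub-cluster 13 (141 against 205 CPM, -0.54, -0.76 to -0.32), and its intervals held 0 in sub-clusters 0 and 11.

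Counted by sub-cluster, 1 of 10 members had an interval above 0 and 5 one below 0 in sub-cluster 0, beside 5.73% and 8.1% of 6077 genes. In sub-cluster 6 these were 0 and 5 of 9 members with 50 UMIs, beside 5.28% and 6.29% of 5433 genes. Sub-cluster 11 had 0 and 7 of 9 members, beside 7.6% and 9.93% of 6412 genes. In sub-cluster 13 they were 0 and 7 of 8 members, beside 9.43% and 8.74% of 6487 genes, and 2 members, *Icam2* and *Cd34*, were at least 2-fold lower, beside 1.06%. The share of members below 0 was thus above that of all genes in each sub-cluster. Intervals narrow as UMIs rise, and the genes beside the members reach down to 50 UMIs. These shares, here and in the other comparisons, are not matched for level or for spread between cells, and the part of either was not tested. The intervals of folds treat each UMI as an independent draw, although the UMIs of a gene can gather in some cells. In sub-cluster 0, for example, the 1363 tdTom- UMIs of *Lyve1* lay in 57 of 84 cells. Members are read in the same cells and their values are not independent of each other.

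Several measures moved with these values in endothelial-like cells, and their part in the result was not tested. Erythroid markers summed to 185 (tdTom+) and 1493 CPM (tdTom-), with none of the 7 at 0 in both fractions, and the 4 that reached 50 UMIs were all lower. Allantois markers summed to 174 and 920 CPM, with 1 of 5 lower and none at 0. Endothelial markers, none of which is a member, summed to 776 and 814 CPM (log2 fold -0.07, -0.12 to -0.01), and 1 of 6 with enough UMIs was lower. Within sub-cluster 0 they summed to 965 CPM in both fractions. Their sums in the other endothelial-like sub-clusters are not given here, so equal levels there cannot be assumed. When globin and mitochondrial genes were left out of the denominator, all pooled counts of members stayed as they were.

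Related genes were read for the same cells. Of 15 junction partners, which anchor the cadherin and claudin to the cell's interior or neighbour them, 13 reached 50 UMIs, 1 had an interval above 0 and 0 one below, beside 8.34% and 11.9% of all genes, and the median log2 fold was 0.06. A count of 1 of 13 is near the share over all genes. The gene above 0 was *Cgnl1*, a paracingulin gene of tight and adherens junctions, at 157 against 136 CPM (0.21, 0.08 to 0.34). The other ends of that list were *Ctnnd1* (0.22, -0.06 to 0.50), *Ptprb* (-0.19, -0.53 to 0.16) and *Vcl* (-0.13, -0.34 to 0.08). Among 25 other endothelial surface and signalling genes, 23 could be read and 0 were above and 5 below 0, beside 8.34% and 11.9% of all genes. The lowest were *Clec14a*, a C-type lectin of endothelium, at 18.0 against 35.1 CPM (-0.96, -1.27 to -0.65), and the scavenger receptor *Stab2* at 12.3 against 19.9 CPM (-0.70, -1.10 to -0.30). *Mcam* (0.22, -0.18 to 0.62) and *Nos3* (0.22, -0.09 to 0.53) had the highest values of that list.

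Of 16 endothelial transcription factors 1 was above and 4 below 0, beside 8.34% and 11.9% of all genes. *Klf2*, a factor induced by blood flow, was at 52.9 (tdTom+) and 86.0 CPM (tdTom-) (-0.70, -0.89 to -0.51), and *Lmo2* was at 396 and 355 CPM (0.16, 0.08 to 0.24). *Prox1*, the lymphatic regulator, had 51 and 49 UMIs and an interval from -1.03 to 0.16 around a log2 fold of -0.44, and *Sox18* had a log2 fold of 0.20 (-0.09 to 0.49). Of 13 arterial and venous genes read, 3 were above and 3 below 0, beside the same shares, and the other 7 had intervals that held 0. The arterial genes *Dll4* (25.2 against 16.5 CPM, 0.61, 0.26 to 0.98) and *Hey1* (38.0 against 28.2 CPM, 0.43, 0.15 to 0.71) were higher in tdTom+, as was the venous gene *Nrp2* (111 against 98.9 CPM, 0.17, 0.02 to 0.32). The venous genes *Nr2f2* (26.7 against 34.0 CPM, -0.35, -0.64 to -0.07) and *Aplnr* (10.1 against 14.1 CPM, -0.48, -0.94 to -0.02) were lower, as was the arterial gene *Gja4* (105 against 121 CPM, -0.20, -0.34 to -0.05), so neither kind moved in 1 direction. *Nrp2* and *Gja4* were named after their values were seen. Of the 3 epithelial genes that could be read, the keratin genes *Krt18* (-0.37, -0.58 to -0.16) and *Krt8* (-0.26, -0.43 to -0.09) were lower. The adhesion gene *Epcam* was at 6.34 and 4.64 CPM with an interval that held 0. Like the members, these pooled values carry the unequal sub-cluster shares.

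Pooled over all named blood cells (1622 tdTom+ and 1478 tdTom-), the sum of the members was higher in tdTom+, the opposite of the sums within blood classes below. The members summed to 110 (tdTom+) and 64.0 CPM (tdTom-), a log2 fold of 0.78 (0.70 to 0.87). Of 9 members with 50 UMIs, 7 had an interval above 0, beside 56.2% of 10500 genes, and 1 one below 0, beside 13%. Among the 7, 4 were at least 2-fold higher, beside 13.3%, and the median log2 fold was 0.75 over the members and 0.23 over all genes. *Cd34* was highest, at 35.7 against 5.81 CPM (2.62, 2.39 to 2.86), followed by *Cdh5* at 13.0 against 3.99 CPM (1.70, 1.40 to 2.01), and *Egfl7* was the member below 0, at 16.6 against 23.9 CPM (-0.52, -0.68 to -0.36). The pool joined classes in unequal shares, since 203 tdTom+ but 29 tdTom- cells were myeloid-like, and these held 3032 of 3865 and 745 of 1829 member UMIs. Myeloid markers summed to 249 and 20.5 CPM and erythroid markers to 15779 and 90603 CPM in the pool, with none of 7 at 0 in either list, and their part in the result was not tested. Without them, a setting chosen after the data were seen, the sum was 26.7 (tdTom+) and 38.6 CPM (tdTom-), a log2 fold of -0.53 (-0.66 to -0.40), while *Cd34* stayed higher, at 4.23 against 0.676 CPM (2.65, 1.95 to 3.42).

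Myeloid-like cells (sub-cluster 14, 203 tdTom+ and 29 tdTom-, led by *Fcer1g*, *Alox5ap* and *Spi1*) had the highest sum of the members among the blood classes. The members summed to 786 (tdTom+) and 1592 CPM (tdTom-), a log2 fold of -1.02 (-1.13 to -0.90). Of 9 members with 50 UMIs, 0 had an interval above 0, beside 7.03% of 6611 genes, and 7 one below 0, beside 8.32%. Among these, 4 were at least 2-fold lower, beside 2.04%: *Lyve1* at 56.0 against 374 CPM (-2.74, -3.03 to -2.44), *Cldn5* at 38.6 against 156 CPM (-2.01, -2.43 to -1.59), *Icam2* at 31.9 against 91.9 CPM (-1.53, -2.04 to -0.99) and *Plvap* at 55.5 against 126 CPM (-1.18, -1.61 to -0.74). *Cdh5* (109 against 190 CPM), *Esam* (76.8 against 150 CPM) and *Pecam1* (65.9 against 94.0 CPM) were lower by less than 2-fold.

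The myeloid-like cells were not 1 uniform group. In the finer clustering at resolution 2, 121 tdTom+ and 24 tdTom- of them lay in a cluster led by *Ctla2a* and *Fcer1g* that the markers left unnamed. It had 5 blood progenitor, 4 endothelial, 4 myeloid and 3 megakaryocyte markers raised. Another 82 and 4 lay in one named myeloid, with 7 of 7 myeloid markers and 1 endothelial marker raised. That one also had 5 blood progenitor and 3 megakaryocyte markers raised. The first thus held 59.6% of the tdTom+ and 82.8% of the tdTom- cells. Its tdTom+ cells had 1016 CPM of the members and those of the second had 363 CPM. Within the first cluster alone, a setting chosen after the data were seen, the members summed to 1016 (tdTom+) and 1580 CPM (tdTom-). The log2 fold of this sum was -0.64 (-0.76 to -0.51). There 4 of 9 members in place of 7 had an interval below 0. The share over all genes was not computed for this cluster, so the count cannot be weighed. *Lyve1* there was at 85.2 against 382 CPM (-2.17, -2.46 to -1.86) and *Cldn5* at 58.4 against 160 CPM (-1.46, -1.88 to -1.02). *Icam2* (-0.98, -1.52 to -0.42) and *Esam* (-0.58, -0.97 to -0.17) were lower by less than 2-fold. The intervals of *Plvap* (-0.47, -0.93 to 0.01), *Cdh5* (-0.26, -0.60 to 0.10) and *Pecam1* (-0.29, -0.79 to 0.25) held 0.

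*Cd34* and *Egfl7* were the members with 50 UMIs whose intervals held 0. *Cd34* stood at 291 CPM (274 to 309) in tdTom+ and 314 CPM (265 to 369) in tdTom- myeloid-like cells, a log2 fold of -0.11 (-0.36 to 0.15), and 67.2% and 65.4% of thinned cells held a UMI of it, against 0.651% and 0.587% of neural-like cells. *Egfl7* was at 59.1 and 81.2 CPM (-0.46, -0.96 to 0.08), and *Emcn* had 9 and 7 UMIs, under the minimum. In tdTom+ cells the *Cd34* level of the whole myeloid-like group was above that of every endothelial-like sub-cluster. The nearest was sub-cluster 0, at 244 CPM (223 to 266). Of the resolution 2 clusters of myeloid-like cells, the unnamed one was at 331 CPM (309 to 355) in tdTom+. The one named myeloid was at 217 CPM (193 to 243), not above sub-cluster 0. A median of 2 members in 201 thinned tdTom+ cells and of 4 in 26 thinned tdTom- cells held a UMI, and 21.4% (15.9 to 27.7) and 61.5% (40.6 to 79.8) of cells had at least 4. Endothelial markers in this sub-cluster summed to 257 and 387 CPM with none of 7 at 0, and myeloid markers summed to 1392 and 859 CPM with none at 0. Their part in the difference was not tested, and the tdTom- value rests on 29 cells. In related lists 4 of 11 junction partners, 7 of 13 other endothelial surface genes and 4 of 10 endothelial transcription factors were below 0 and none above, beside 8.32% and 7.03% of all genes, for example *Ctnna1* (-1.21, -1.66 to -0.74), *Procr* (-1.70, -2.37 to -0.98) and *Ets1* (-1.55, -2.37 to -0.65).

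**Figure D3:**
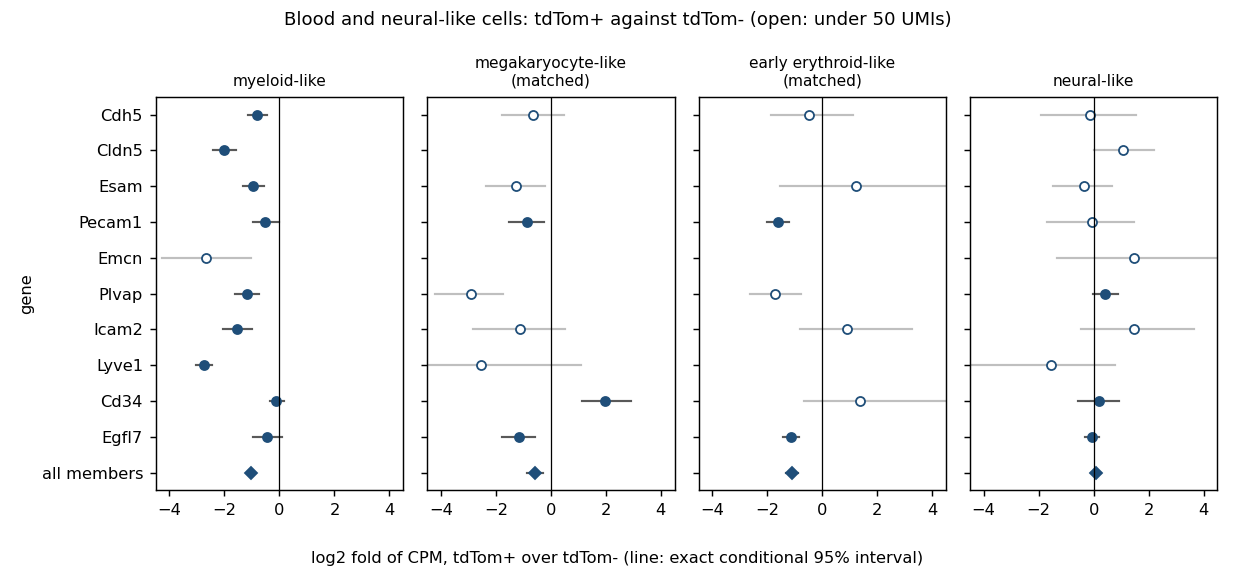
Log2 fold of CPM, tdTom+ over tdTom-, of each member and of their sum (diamond) in myeloid-like, matched megakaryocyte-like, matched early erythroid-like and neural-like cells; lines are exact conditional 95% intervals, open points have under 50 UMIs, and genes at 0 in a fraction are not drawn. *Cd34* lies at -0.11 in myeloid-like cells, where its interval and that of *Egfl7* hold 0, and at 1.96 in megakaryocyte-like cells.

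To compare blood cells whose sub-clusters separated by fraction, each tdTom+ blood cell was paired with the sub-cluster that held the most of its 15 nearest tdTom- neighbours among haemato-endothelial cells. The early erythroid-like sub-cluster 8 (304 tdTom- cells, with *Cited4* and *F10* among its leading genes) drew 1240 of 1622 tdTom+ blood cells. The members summed to 20.9 (tdTom+) and 44.7 CPM (tdTom-) (-1.10, -1.31 to -0.88) beside 17.4 and 16.5 CPM in neural-like cells, so that the tdTom+ sum was near that of neural-like cells. With the neural-like level of each gene subtracted and values under 0 set to 0, the log2 fold of the sum was -2.16. With the neural-like sum subtracted from the sum of the members, a setting chosen after the data were seen, it was -3.03. That setting leaves 3.45 (tdTom+) and 28.2 CPM (tdTom-). It takes out more of some genes than the matched tdTom+ cells held, such as *Plvap*, at 0.984 CPM there and 3.37 CPM in neural-like tdTom+ cells. The value of -3.03 is therefore too far from 0 to serve as an estimate. Only *Pecam1* and *Egfl7* reached 50 UMIs, and 2 of 2 were at least 2-fold lower, beside 3.31% of 9330 genes, while 15% had an interval below 0 and 28.2% one above. *Pecam1* was at 5.06 CPM (4.26 to 5.98) in tdTom+ and 15.3 CPM (12.3 to 18.9) in tdTom-, against 0.288 and 0.299 CPM in neural-like and 6.75 and 3.08 CPM in mesenchyme-like cells, a log2 fold of -1.60 (-1.99 to -1.20). *Egfl7*, with 302 UMIs in tdTom+, was at 9.80 to 12.3 CPM there, overlapping the intervals of neural-like cells, and at 24.0 CPM (20.2 to 28.3) in tdTom- (-1.13, -1.42 to -0.83). The tdTom- level was above that of neural-like cells but overlapped that of mesenchyme-like cells.

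After thinning, 2.35% of 1232 matched tdTom+ cells and 8.58% of 303 tdTom- cells held a *Pecam1* UMI, against 0.145% and 0.147% of neural-like cells, and without thinning 9.19% and 26.6% did. The thinned shares for *Egfl7* were 5.76% and 10.9%, against 5.35% and 5.62% of neural-like cells, so that the tdTom+ share was near that of neural-like cells. Of the other 8 members, *Plvap* had 27 and 19 UMIs, at 0.984 and 3.24 CPM beside 3.37 and 2.52 CPM in neural-like cells, and 7 had at most 26 UMIs in tdTom+ and 6 in tdTom-. Depths per cell were 21628.5 and 18911.5 UMIs at the median. Among tdTom- erythroid-like cells *Pecam1* was highest in this early sub-cluster, and its level in the other 4 was 3.43 to 6.71 CPM, with intervals that overlapped each other. Only 26 tdTom+ cells matched those 4, with 2 UMIs of *Pecam1* and 4 of *Egfl7* beside 115 and 446 in 1056 tdTom- cells. Of 12 endothelial transcription factors that could be read 7 were above and 3 below 0, beside 28.2% and 15% of all genes, with *Mef2c* at 75.1 against 14.8 CPM (2.34, 2.03 to 2.67), *Elk3* at 3.28 against 0.341 CPM and *Ets1* at 3.35 against 10.6 CPM (-1.66, -2.14 to -1.17). Of 11 junction partners 3 were above and 3 below, and of 5 other endothelial surface genes 2 and 2. Of 4 arterial and venous genes these counts were 3 and 0, and of 3 epithelial genes 1 and 0. *Nrp2*, of the arterial and venous list, had 1548 UMIs in tdTom+ and 4 in tdTom-, and *Tjp1*, of the junction partners, was at 4.52 against 15.2 CPM (-1.75, -2.15 to -1.34). Blood progenitor markers were all higher in these tdTom+ cells (6 of 6, 511 against 105 CPM) and erythroid markers all lower (7 of 7), and their part in the result was not tested.

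Megakaryocyte-like cells (sub-cluster 9, 84 tdTom- cells, led by *Rab27b* and *Fermt3*) drew 142 tdTom+ cells. Platelet precursors are known to share several of the members with endothelium, and the tdTom- cells had *Egfl7* at 33.1 CPM, *Pecam1* at 27.5 CPM, *Plvap* at 19.4 CPM and *Esam* at 11.9 CPM, above the neural-like level of each, although the *Egfl7* interval (24.8 to 43.3) overlapped that of mesenchyme-like tdTom- cells. The members summed to 77.2 (tdTom+) and 116 CPM (tdTom-) (-0.58, -0.87 to -0.30). Of 3 members with 50 UMIs, 1 was above 0, beside 12.9% of 6447 genes, and 2 below, beside 13%. The gene above was at least 2-fold higher, beside 3.44%, and 1 of the 2 below at least 2-fold lower, beside 3.15%. *Cd34* was higher in tdTom+, at 31.6 CPM (25.6 to 38.5) against 8.12 CPM (4.33 to 13.9), a log2 fold of 1.96 (1.12 to 2.92). *Pecam1*, at 14.98 against 27.5 CPM (-0.88, -1.51 to -0.25), and *Egfl7*, at 14.6 against 33.1 CPM (-1.18, -1.78 to -0.58), were lower. *Plvap* had 8 UMIs in tdTom+ and 31 in tdTom-, under the minimum, with an interval of the log2 fold from -4.23 to -1.74.

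The matched tdTom+ cells were drawn mostly from other sub-clusters. Of the 142, 93 belonged to the progenitor-like sub-cluster 15, led by *Spi1* and *Rac2*, 41 to sub-cluster 2 and 5 to the myeloid-like sub-cluster 14, which held 76, 1 and 19 of their 97 *Cd34* UMIs. Without the cells of sub-cluster 15, a setting chosen after the data were seen, 21 *Cd34* UMIs remained in 49 cells, which with 13 in tdTom- is under the minimum of 50, and the log2 fold was 1.24 (0.17 to 2.36). The log2 fold of the sum was then -1.13 (-1.58 to -0.69) and that of *Pecam1* -2.33 (-3.85 to -1.09). Of members with 50 UMIs, 2 of 2 were at least 2-fold lower. The share over all genes was not computed for this set of cells, so the count cannot be weighed. Without sub-cluster 2 the sum was at -0.14 (-0.43 to 0.15) and *Pecam1* at -0.34 (-0.96 to 0.29). Megakaryocyte markers summed to 143 CPM in the matched tdTom+ and 372 CPM in the tdTom- cells, with 4 of 4 that could be read lower and none of 7 at 0, and myeloid markers to 342 and 86.2 CPM, with 2 of 2 higher and 1 of 7, *Cx3cr1*, at 0. Their part in the result was not tested.

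In the tdTom+ blood progenitor-like cells, which had no tdTom- counterpart sub-cluster, *Cd34* was held by 1 of 5 sub-clusters. Sub-cluster 15 (227 tdTom+ cells, led by *Spi1* and *Rac2*) had 120 of its 131 UMIs, at 23.8 CPM (19.7 to 28.5), and the other 4 had at most 4 UMIs each. Neural-like tdTom+ cells had *Cd34* at 1.19 CPM. After thinning 8.37% of cells of sub-cluster 15 held a *Cd34* UMI and 21.6% did without thinning. *Pecam1* was seen in sub-clusters 15 (15.1 CPM) and 16 (16.5 CPM) above the other 3 (2.21 to 4.41 CPM). *Cdh5* had 18 of its 34 UMIs in sub-cluster 15 (3.57 CPM, 2.12 to 5.64), and its intervals in the other 4 overlapped that of neural-like cells, at 0.247 CPM (0.0905 to 0.537). Over all progenitor-like cells *Lyve1*, *Emcn* and *Cldn5* were at 0.225, 0.160 and 0.449 CPM.

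**Figure D4:**
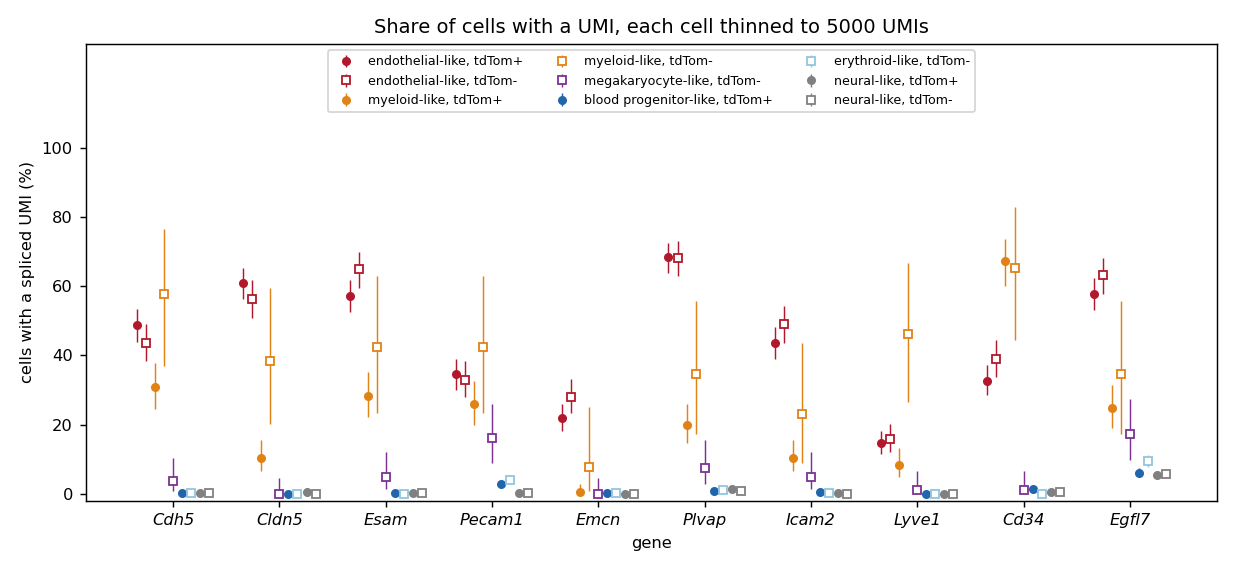
Share of cells with at least 1 spliced UMI of each gene after each cell was thinned to 5000 UMIs, by class (colour) and fraction (filled tdTom+, open tdTom-), with exact 95% intervals. Blood progenitor-like and erythroid-like cells lie with the neural-like cells for most genes, and *Cd34* in myeloid-like cells, at 67.2% and 65.4%, is above its share in endothelial-like cells.

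The unspliced share of a gene, its unspliced over all its UMIs, differed more between genes than between fractions. In endothelial-like cells it was 37.3% in tdTom+ and 36.6% in tdTom- for *Pecam1*, 32.8% and 32.4% for *Egfl7*, 30.3% and 31.4% for *Emcn*, and 24.5% and 22.3% for *Cdh5*. *Cd34* had 10.2% and 9.76%, and *Esam*, *Plvap*, *Icam2* and *Lyve1* had 2.30% to 3.67%. Intronless *Cldn5* had 0 unspliced UMIs. The intervals of the fractions overlapped for each member in pooled endothelial-like and in myeloid-like cells. In *Lyve1*, whose spliced level was lower in tdTom+ cells of sub-cluster 0, the unspliced share there was 1.99% (1.29 to 2.92) and 2.29% (1.57 to 3.22), on 25 and 32 unspliced UMIs. *Cd34* was an exception within sub-cluster 0, at 10.0% (7.69 to 12.8) in tdTom+ and 3.83% (1.85 to 6.93) in tdTom-, on 57 and 10 unspliced UMIs, and its intervals overlapped in the other 3 sub-clusters. In those 3 the tdTom+ share of *Cd34* was the smaller, for example 7.56% against 13.3% in sub-cluster 6. The value of sub-cluster 0 was picked out after it was seen. The share of all genes with such a gap was not computed, so it cannot be weighed. *Pecam1* UMIs in neural-like cells were 80.0% unspliced in tdTom+ and 81.1% in tdTom-, on 28 and 43 unspliced UMIs, above the endothelial share.

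**Figure D5:**
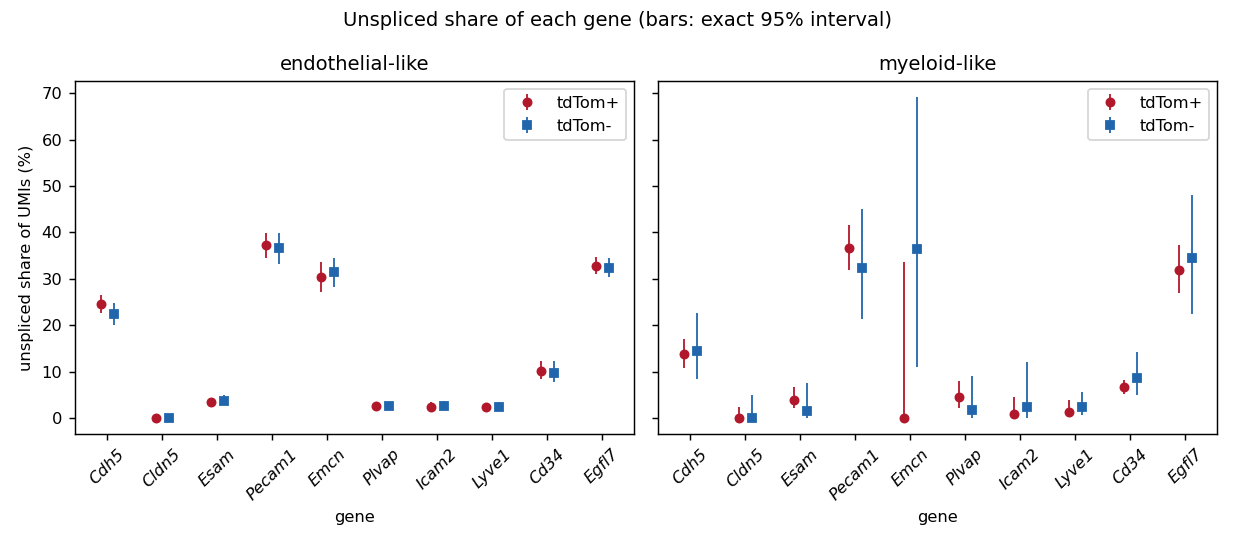
Unspliced share of the UMIs of each gene in endothelial-like and myeloid-like cells, tdTom+ (circles) and tdTom- (squares), with exact 95% intervals. Shares range from 0 for *Cldn5* to 37.3% for *Pecam1* in endothelial-like cells, and the intervals of the fractions overlap at every gene.

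Over 23 groups, the haemato-endothelial sub-clusters split by fraction with at least 20 cells, the members were compared as log2(CPM + 10). Pearson's r between 2 members ranged from 0.39 (*Egfl7* and *Lyve1*) to 0.98 (*Plvap* and *Esam*). *Lyve1* had 6 of the 6 lowest values, while *Cldn5*, *Esam* and *Plvap* correlated with each other at 0.98 each. Among 7535 genes with at least 500 UMIs, those most like the mean of the members were *Fam171a2* (0.99), *N4bp3* (0.99), *Gngt2*, *Calcrl*, *Smtn*, *Adam15*, *Flt1*, *Sparc*, *Gng11* and *Fgd5* (0.97). The nearest gene to each member was *N4bp3* for *Cdh5*, *Ecscr* for *Cldn5*, *Grap* for *Esam*, *Exoc3l2* for *Pecam1*, *Col4a1* for *Plvap*, *Csgalnact1* for *Icam2*, *Sipa1* for *Cd34* and *Fstl1* for *Egfl7*, with r of 0.97 to 0.99. *Emcn* was nearest to *Clec1b* (0.94) and *Lyve1* to *Ap2s1* (0.94). The 23 groups come from 2 libraries and share their depth, so these values are a description.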

How the data were processed

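Spliced and unspliced UMI counts per gene and cell were measured in 1 tdTom+ and 1 tdTom- library. The authors made the deposited counts from 10X v3 reads with Cell Ranger 3.0.2 (mm10, GRCm38) and velocyto, and the values are whole, not normalized numbers of molecules. A deposited table of quality metrics per cell was not used, and the deposited gene table was read for Ensembl IDs only. Loci came from GENCODE vM21, and promoter and miRNA sequences from RefSeq.

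Doublets were called with Scrublet in each library, 394 (4.39%) of the tdTom+ and 518 (5.60%) of the tdTom- cells, and were left out with a cluster of 422 cells in which 91.5% were called. Cells were clustered with scanpy 1.11.5 (2137 variable genes, 50 components, 20 neighbours, Leiden resolution 1.5), and haemato-endothelial cells again (2100 genes, 30 components, 15 neighbours, resolution 1). The members and the sex-linked genes *Xist*, *Tsix*, *Ddx3y*, *Kdm5d*, *Eif2s3y* and *Uty* were left out of the clustering. A cluster was named from at least 3 listed markers raised 2-fold with 10 CPM added. The tdTom+ blood cells were matched to tdTom- cells by the most frequent sub-cluster among 15 nearest neighbours.

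The UMIs of a gene in a group were added up and divided by all spliced UMIs of the same cells (CPM). With 1 library for each fraction no test between fractions was possible, and no p-values were computed. Intervals are exact at 95% (Poisson for levels, Clopper-Pearson for shares, conditional binomial for folds; scipy 1.17.1) and cover counting error only. A gene was counted as higher or lower where the interval of its log2 fold excluded 0 and it had at least 50 UMIs in both groups together. The calculation of the fold intervals was run on simulated counts drawn from the Poisson model that these intervals assume. The simulated counts held no spread between cells or libraries, so the run checks the calculation only and not whether that model holds here.

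Named were the 10 members, the 2 highest and 2 lowest genes of each related list, and the genes most like the members over sub-clusters. The members and lists were chosen with earlier results of these data known. Alternatives were cells thinned to 5000 UMIs, doublets kept, resolution 2, cosine distance, unspliced UMIs added, neural-like levels subtracted as an estimate of free RNA, no minimum of UMIs, cells with at least 4 endothelial markers, and globin and mitochondrial genes left out. Alternatives that leave out, split or reweight sub-clusters, or add the unnamed one, were chosen after seeing the data.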

Additional observations from a re-analysis of the deposited data

How the results depend on the processing

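The pooled endothelial-like sum of the members, with a log2 fold of -0.12, was -0.19 after thinning to 5000 UMIs and -0.17 in cells with at least 4 endothelial markers, where 2 members were higher. Among the settings chosen after seeing the data, without sub-cluster 0 it was -0.18 with 2 members higher, without sub-cluster 11 it was -0.00035 with 4 higher and 3 lower, without sub-cluster 13 it was -0.30 with 0 higher, and with the same sub-cluster weights in both fractions it was -0.33. The counts of members in all these settings have no share over all genes beside them. They can therefore not be weighed. Without sub-cluster 0 the log2 fold of *Lyve1* turned to 1.26, and without sub-cluster 11 those of *Esam* and *Plvap* turned to 0.066 and 0.012. The early erythroid-like sum, -1.10, was -2.16 after the neural-like level of each gene was subtracted, with values under 0 set to 0. It was -3.03 with the neural-like sum subtracted from the sum, which takes out more of some genes than the tdTom+ cells held. The sum over all blood cells, 0.78, turned to -0.53 without myeloid-like cells, a setting chosen after seeing the data. The myeloid-like sum, -1.02, was -0.64 in the larger of its resolution 2 parts, and the megakaryocyte-like sum, -0.58, was -0.14 without matched cells of sub-cluster 2 and -1.13 without those of sub-cluster 15, both chosen after seeing the data. With no minimum of UMIs, 132 genes in place of 26 were 2-fold higher and 201 in place of 65 2-fold lower in endothelial-like cells. Lower by 2-fold were 515 in place of 309 in early erythroid-like cells, 398 in place of 135 in myeloid-like cells, 559 in place of 203 in megakaryocyte-like cells and 216 in place of 69 in sub-cluster 13, and 438 in place of 222 were 2-fold higher in megakaryocyte-like cells. The cause of these changes was not tested. The other 52 values of these summary results stayed close to the reported ones. Among values outside these summary results, such as folds of single members, 143 stayed close, 44 moved and 3 turned in direction.

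No paired analysis was possible because each fraction is 1 library, and leaving out a library was not possible either. The spread between embryos or libraries is unknown. The intervals of levels and folds do not hold the spread between cells of a group. Depth limits the members with few UMIs, among them *Emcn* in sub-cluster 13 and 8 of 10 members in early erythroid-like cells, and the tdTom- myeloid-like values rest on 29 cells.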
